A study of Mus musculus with 4 samples.

Results

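S-phase granule progenitor-like tumour cells are the cells of 4 mouse medulloblastomas that carried transcripts of DNA replication and of the granule lineage but few transcripts of mitosis. They were chosen on measured values. A cell was a member when it had at least 1 unique molecular identifier (UMI, a tag that marks 1 captured RNA molecule) of Atoh1, of at least 4 of the 5 genes Hist1h1b, Hist1h2ae, Hist1h2ao, Rrm2 and Tk1, of at most 3 of the 10 G2/M genes Ccnb1, Cdc20, Ube2c, Plk1, Cenpe, Cenpf, Cenpa, Hmmr, Kif23 and Prc1, of at most 3 of the 5 neuronal genes Cntn2, Neurod1, Stmn2, Pnoc and Rab3a, and none of Ptprc. This rule kept 57 of 6509 cells. Tumours 1 to 4 gave 15, 28, 10 and 4 of them.

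All 4 tumours belonged to 1 group, with no treated tumours or normal tissue beside it. They were end-point medulloblastomas of the Sonic hedgehog (SHH) subgroup from Ptch1+/- mice that had been irradiated at birth, and received no treatment. Nothing in the labels ties each numbered tumour to a mouse of its own. A p-value here measures how a difference between kinds of cells varied over these samples, a spread that may therefore be technical. Each library was made on the 10x Genomics platform from viably frozen cells that were thawed and sorted for live cells.

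Granule neuron progenitors of the cerebellum divide in response to SHH. Ptch1 is the receptor gene that restrains this signal, and Atoh1 encodes the transcription factor that marks the progenitors. Before a cell copies its DNA, ORC, Cdc6 and Cdt1 load the MCM helicase onto origins, a step called licensing. Cyclin E and cyclin A with Cdk2 then fire the origins, E2F factors drive many of the genes involved, and new histones are made to package the copied DNA.

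Members were a small tail of the cells with S-phase transcripts. Of the 2825 cells with Atoh1, no Ptprc and at most 3 neuronal genes, 643 had at least 4 S-phase genes, and 57 of those 643 had at most 3 G2/M genes. All 10 G2/M genes were detected in 158 of the 643 cells, which is more cells than the rule kept. Just inside the thresholds stood 40 members with 4 S-phase genes, 24 members with 3 G2/M genes and 21 members with 3 neuronal genes. Just outside stood 80 cells with 3 S-phase genes, 46 cells with 4 G2/M genes and 8 cells with 4 or 5 neuronal genes. The plot of cells by number of G2/M genes shows no gap at the limit.

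**Figure D1:**
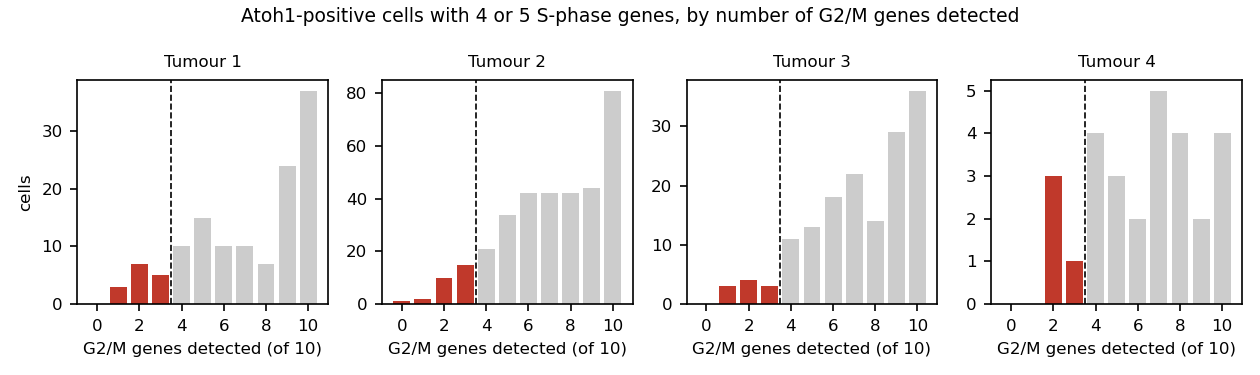
Number of cells (y axis) with 4 or 5 S-phase genes, Atoh1, no Ptprc and at most 3 neuronal genes, by the number of the 10 G2/M genes detected (x axis), 1 panel per tumour with its own y scale. Red bars left of the dashed line are the 15, 28, 10 and 4 members of tumours 1 to 4, and grey bars are cells left out by the limit of 3 G2/M genes.

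Members made up 1.88% of the cells of tumour 1 (95% exact binomial interval 1.06 to 3.08), 1.08% of tumour 2 (0.720 to 1.56), 0.814% of tumour 3 (0.391 to 1.49) and 0.211% of tumour 4 (0.0576 to 0.540). Of the cells with Atoh1 and no Ptprc they were 3.03%, 1.68%, 1.09% and 1.33%. The intervals cover counting error only. Detection depends on depth, and the median cell held 15284 UMIs in tumour 1 against 6799 to 7825 in the others. When every cell was thinned to 4900 UMIs, leaving out shallower cells, 5 of 798, 37 of 2206, 12 of 913 and 2 of 1333 cells met the rule. Those shares of 0.627%, 1.68%, 1.31% and 0.15% put tumour 2 highest and not tumour 1.

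Whole libraries held 10458431 to 23439893 UMIs, and members 281348, 285349, 85432 and 43172 in tumours 1 to 4. At that depth 1 UMI was worth 3.55, 3.5, 11.7 and 23.2 CPM (counts per 1000000, a gene's UMIs for every 1000000 UMIs of its class and tumour). Pairs of libraries shared 0 to 7 cell barcodes, and 0 members had a shared barcode. Scrublet called 21 doublets, 0.323% of cells and too few for the caller to have worked, and 1 of them was a member.

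The label was checked against granule progenitor genes outside the rule. Barhl1, a homeobox gene of the granule lineage, was at 430, 498, 410 and 46.3 CPM in the members of tumours 1 to 4, against 18.3 to 22.4 CPM in cells with Ptprc and no Atoh1. Zic1, a zinc finger factor of the same lineage, was at 242, 361, 550 and 208 CPM, against 36.6 to 54.4 CPM in those cells. Pax6, also a granule lineage factor, was at 164, 270, 340 and 92.7 CPM, against 15.1 to 36.6 CPM. Members of all tumours were above the immune cells of every tumour for these genes. In tumour 4 the Barhl1 value rests on 2 UMIs in 1 of 4 cells. The cells with Ptprc and no Atoh1 numbered only 7 in tumour 3, where 1 UMI was worth 18.3 CPM.

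Several members went against the label. In tumour 1, 1 cell of 13933 UMIs held 22 UMIs of Fcer1g, 12 of Ctss and 11 of Tyrobp, all genes of myeloid cells. It held 1 UMI of Atoh1. The antigen presentation gene Cd74 was at 1358 CPM in the members of that tumour, and most of its UMIs were in this 1 cell. Another held 20 UMIs of Gfap and 14 of Sparc, which mark astrocytes, beside 8 of Atoh1. In tumour 4, 1 cell held 10 UMIs of Olig2 and 7 of Olig1, regulators of the oligodendrocyte lineage, with 25 of Sparc and 12 of Slc1a3, beside 2 of Atoh1. With 1 member of tumour 1 that had 10 UMIs of Slc1a2, these were the 4 members with 10 or more UMIs of any 1 marker gene of other cell types, leaving aside Apoe. Such cells made up 20%, 0%, 0% and 25% of the members, 11.7%, 1.97%, 1.52% and 14.8% of non-cycling cells and 9.25%, 1.10%, 3.21% and 25.6% of G2/M cells in tumours 1 to 4. Endothelial, erythroid and T cell genes were at 0 or 1 UMI in the members of each tumour. Many of these genes were not listed for every tumour, and an unlisted gene was counted as 0. Of 10 T and NK cell genes 6 were listed for tumour 2 and 0 for tumour 3. Of 5 erythroid genes 0 and 1 were listed there, and of 8 endothelial and pericyte genes 2 and 4.

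The genes of the rule are given as a description only. Rrm2, a subunit of the enzyme that makes deoxynucleotides, was at 313, 515, 503 and 324 CPM in the members of tumours 1 to 4. Tk1, which salvages thymidine, was at 81.7, 179, 176 and 139 CPM, and the linker histone gene Hist1h1b at 64.0, 123, 105 and 92.7 CPM. Atoh1 was at 270, 347, 445 and 255 CPM. The 10 G2/M genes summed to 149, 364, 269 and 394 CPM, against 2090 to 3340 CPM in G2/M cells.

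Members were compared with other Atoh1-positive cells of the same tumours. Non-cycling cells had at most 1 of the 5 S-phase and 1 of the 10 G2/M genes, and there were 77, 456, 198 and 61 of them. G2/M cells had at least 5 of the 10 G2/M genes, whatever their S-phase genes, and there were 173, 546, 280 and 86. UMIs were summed per tumour and class, and log2(CPM + 10) was tested with limma, with the tumour as a block, in tumours 1 to 3, since tumour 4 had fewer than 10 members. Every difference below is on the log2(CPM + 10) scale, which understates the change of low genes, and every adjusted p is limma's with Benjamini-Hochberg adjustment over all genes tested. The 22 rule genes were left out. All classes were cut on genes of the cell cycle, so other genes of the same phases move with that choice of cells, and the test does not separate this from any other difference. Both comparisons use the same members. limma shares the variance between genes, so very small p-values rest on more than the 3 tumours' own spread. Members were also deeper than non-cycling cells and shallower than G2/M cells, with medians of 14044, 8615 and 8822 UMIs against 9650, 6513 and 5444, and against 19775, 11614 and 10426, in tumours 1 to 3.

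Against non-cycling cells, 242 of 10168 genes were higher in S-phase cells (2.38%) and 124 were lower (1.22%) at an adjusted p under 0.05. Of the 242 higher genes 31, and of the 124 lower genes 9, passed the filter of detection in 5% of cells only through the class where they were high, so that they had to differ. Esco2, Brca1 and Ncapg are among the former and C1qc among the latter. The former held 1 gene each of the G1/S, licensing and fork lists given below. The higher genes included replication genes of every role. Among called genes that moved the same way in all 3 tumours and reached 20 CPM, the 10 with the largest differences were Hist1h2ap, Top2a, Esco2, 2810417H13Rik, Birc5, Cdk1, Fbxo5, Pbk, Ccna2 and Fam111a, with differences from 2.12 to 4.17. Without tumour as a block 10 genes were higher and 0 lower, with 741 at an unadjusted p under 0.05. The mean of the deposited log2 values, which gives every cell the same weight, gave 345 higher and 31 lower. With tumour 2 left out the test gave 97 higher and 43 lower, without tumour 1 it gave 70 lower, and without tumour 3 it gave 41 lower.

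Of the G1/S regulators, 7 of 22 were higher and 0 lower, with a median difference of 0.60 against -0.04 over all genes tested. Ccne2, 1 of the cyclin E genes that start replication, was at 53.3, 70.1 and 58.5 CPM in the S-phase cells of tumours 1 to 3 and at 8.85, 12.5 and 32.6 CPM in non-cycling cells. Its difference was 1.42 ± 0.304 (SE, adjusted p = 0.00043), and 1.22 without tumour 2 (adjusted p = 0.164). Ccne1, the other cyclin E gene, differed by 1.18 ± 0.336 (SE, adjusted p = 0.0219), which fell short without tumour 2 or tumour 3 (adjusted p = 0.267 and 0.355). Ccna2, the cyclin of S and G2 phase, was at 78.2, 126 and 141 CPM against 13.3, 16.6 and 24.7 CPM.

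Licensing and helicase genes were higher in 13 of 23 cases and lower in 0, with a median difference of 0.88. Cdc6 (chromosome 11, 98907709 to 98923942 in the RefSeq annotation of GRCm38.p6, as for the genes below), the loader of the MCM helicase, was at 49.8, 109 and 117 CPM in S-phase cells and at 8.85, 20.8 and 19.4 CPM in non-cycling cells. The S-phase cells of tumours 1 to 3 each lay above the non-cycling cells of the same tumour. The difference was 1.91 ± 0.286 (SE, adjusted p = 6.12e-08). In tumour 4 Cdc6 had 0 UMIs in members, where 3 UMIs would be 69.5 CPM. Cdt1, its partner in loading, and Gmnn, the inhibitor of Cdt1, were both higher, by 1.43 ± 0.229 and 1.41 ± 0.283 (SE), and without tumour 2 Cdt1 missed the threshold (adjusted p = 0.0509). Cdc45, which joins the helicase when an origin fires, was higher by 1.51 ± 0.292. Mcm6 (chromosome 1, 128331575 to 128359705), a helicase subunit, was at 309, 603 and 503 CPM against 168, 312 and 248 CPM, and Mcm5 differed by 1.07 ± 0.168 (SE).

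The promoters of Cdc6 and Mcm6 are shown because these genes were higher in S-phase cells than in both other classes, and those of Cdk1 and Top2a because these genes lay between the other classes. Each runs 5′ to 3′ on the gene's strand and ends upstream of a start site of RefSeq (GRCm38.p6), trimmed where an annotated exon begins. The start site used for Cdc6 lies inside the annotated gene, so its stretch is upstream of a later start and not of the gene's first base. Capitals mark matches to an E2F site (TTTCCCGC, TTTCGCGC, TTTGCCGC or TTTGGCGC) or to the CHR element (TTTGAA), an element found in promoters of mitotic genes, read on both strands. The Cdc6 stretch is chr11:98907982-98908150 on the plus strand, and on the minus strand Mcm6 is chr1:128359706-128359955, Cdk1 chr10:69352939-69353162 and Top2a chr11:99024200-99024439.
Cdc6: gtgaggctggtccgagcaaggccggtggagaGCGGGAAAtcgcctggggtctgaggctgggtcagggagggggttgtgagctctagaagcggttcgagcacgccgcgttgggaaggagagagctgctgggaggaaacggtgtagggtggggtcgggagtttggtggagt
Mcm6: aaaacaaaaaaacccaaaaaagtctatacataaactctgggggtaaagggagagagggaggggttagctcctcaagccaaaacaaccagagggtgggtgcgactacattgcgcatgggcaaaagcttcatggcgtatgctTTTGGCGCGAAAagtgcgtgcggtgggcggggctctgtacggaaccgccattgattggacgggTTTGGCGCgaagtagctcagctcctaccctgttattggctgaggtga
Cdk1: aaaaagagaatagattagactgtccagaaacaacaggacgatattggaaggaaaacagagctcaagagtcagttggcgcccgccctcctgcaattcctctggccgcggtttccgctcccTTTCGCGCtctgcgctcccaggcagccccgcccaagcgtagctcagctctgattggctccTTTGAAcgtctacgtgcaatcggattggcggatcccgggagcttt
Top2a: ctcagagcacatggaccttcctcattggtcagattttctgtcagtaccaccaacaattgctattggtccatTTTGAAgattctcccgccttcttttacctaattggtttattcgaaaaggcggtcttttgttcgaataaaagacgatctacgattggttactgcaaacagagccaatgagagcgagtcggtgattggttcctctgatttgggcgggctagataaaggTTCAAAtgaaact
Cdc6 held 1 E2F match that began 138 bases before the start site, and Mcm6 held 3 that began 110, 106 and 47 bases before it, the first and second overlapping. Cdk1 held 1 E2F match at 131 bases and CHR matches at 71 and 15 bases, the last outside the stretch shown. Top2a held CHR matches at 179 and 23 bases. A match is a run of letters and not a measured binding site.

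Over the list of licensing and helicase genes, 9 of 17 genes with a promoter in the table held an E2F match in the 300 bases from 250 before to 50 after the start site. Among the G1/S regulators 7 of 17 did, among polymerase, clamp and fork genes 7 of 23, and among G2/M genes outside the rule 2 of 38. The other replication lists gave 6 of 15 for chromatin copying, 7 of 20 for repair and checkpoint, 2 of 13 for histone supply and 1 of 20 for nucleotide synthesis. The share was 2.60% over all 27025 genes of the table and 5.32% over the 7574 tested genes with a promoter. For CHR the counts of the first 4 lists were 5 of 17, 5 of 17, 2 of 23 and 25 of 38, in the same order, and those of the others 3 of 15, 3 of 20, 3 of 13 and 2 of 20, against 20.2% and 13.5%. For the CCAAT box (CCAAT, both strands) they were 12 of 17, 8 of 17, 12 of 23 and 28 of 38, and 11 of 15, 10 of 20, 10 of 13 and 11 of 20, against 41.1% and 43.6%.

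Polymerase, clamp and fork genes were higher in 19 of 30 cases and lower in 0, with a median difference of 1.01. Pcna (chromosome 2, 132249286 to 132253180), the sliding clamp, was at 281, 568 and 503 CPM in the S-phase cells of tumours 1 to 3 and at 106, 177 and 216 CPM in non-cycling cells. The difference was 1.38 ± 0.142 (SE, adjusted p = 1.67e-15), and the 4 members of tumour 4 were at 324 CPM against 95.3 CPM. Lig1, which joins Okazaki fragments, was higher by 1.61 ± 0.182 and Rfc5, part of the clamp loader, by 1.49 ± 0.225 (SE). Esco2 (chromosome 14, 65819027 to 65833969), which ties sister chromatids together during replication, was at 53.3, 126 and 105 CPM against 1.11, 6.40 and 7.93 CPM. Nucleotide synthesis genes were higher in 9 of 21 cases and lower in 0, with a median of 0.51. Tyms, which makes thymidylate, differed by 1.54 ± 0.201, Mthfd2 by 1.41 ± 0.238, and Rrm1, the large subunit of ribonucleotide reductase, by 1.28 ± 0.20 (SE).

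Some histone genes were higher. Of 68 clustered histone genes listed, 30 passed the filter of detection in 5% of cells, 7 were higher and 0 lower. Of the 7 higher genes 4 passed the filter only through the S-phase class, so that they had to differ. Hist1h2ap, a histone H2A gene, was at 2655, 1566 and 901 CPM in S-phase cells and at 113, 54.4 and 73.2 CPM in non-cycling cells, the largest of the named differences (4.17 ± 0.152, SE, adjusted p = 2.87e-20). It gave 78.0%, 56.5% and 50% of the clustered histone UMIs of the members of tumours 1 to 3. Clustered histone genes are near-identical copies whose mRNAs mostly lack a poly(A) tail, so their values are uncertain. Of the histone supply genes 7 of 13 were higher and 0 lower. Slbp, which binds the stem loop of histone mRNAs, was at 284, 463 and 468 CPM against 130, 158 and 195 CPM, and differed by 1.26 ± 0.144. Asf1b, Chaf1b and Hat1, which chaperone or acetylate new histones, differed by 1.6 ± 0.32, 1.36 ± 0.241 and 1.23 ± 0.198 (SE), and the first and second of these calls were lost without tumour 3 (adjusted p = 0.0788 and 0.0587). Of 10 variant histone genes H2afx, H1fx, H2afz and H2afv were higher and 0 lower, where H1fx was lost without tumour 1 or 2 (adjusted p = 0.0746 and 0.692) and H2afv without tumour 2 or 3 (adjusted p = 0.207 and 0.145), with H2afz, which has near-identical copies, at 3011, 4507 and 3617 CPM against 1739, 2154 and 2008 CPM.

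Of the genes that copy chromatin marks 7 of 16 were higher and 0 lower. Uhrf1, which guides DNA methylation to new strands, was at 99.5, 203 and 211 CPM against 29.9, 48.0 and 42.3 CPM. Hells, Ezh2 and Lmnb1 were higher by 1.29 ± 0.209, 0.91 ± 0.166 and 0.78 ± 0.15 (SE). Dnmt1, the methyltransferase itself, was at 60.4, 66.6 and 70.2 CPM against 24.3, 29.7 and 54.7 CPM and did not pass (adjusted p = 0.104). Of the repair and checkpoint genes 13 of 27 were higher and 0 lower, led by Fbxo5, an inhibitor of the anaphase-promoting complex (2.42 ± 0.28), Neil3 (1.76 ± 0.338), Rad51ap1 (1.72 ± 0.265) and Brca1 (1.46 ± 0.361, SE). Of the 13 higher genes 3, Brca1 among them, passed the filter only through the S-phase class and had to differ. The Brca1 call was lost without tumour 2 or tumour 3, and the Neil3 call without tumour 2 (adjusted p = 0.224, 0.0537 and 0.2).

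**Figure D2:**
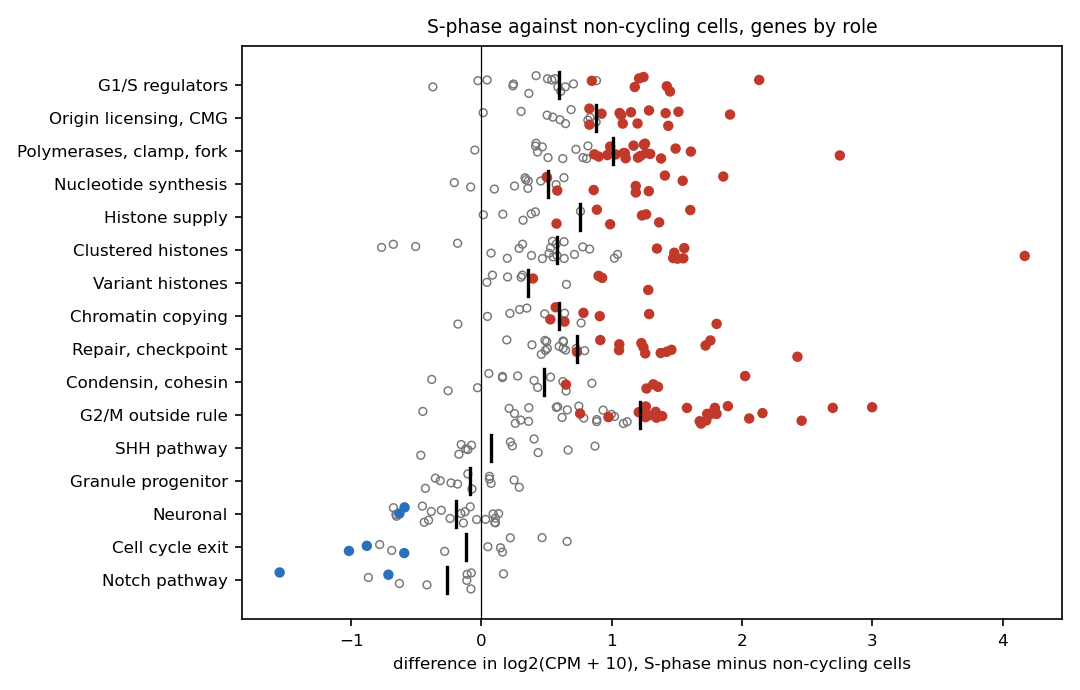
Differences in log2(CPM + 10), S-phase minus non-cycling cells (x axis), of the tested genes of 16 lists by role (y axis), in tumours 1 to 3. Red points were higher and blue points lower at an adjusted p under 0.05, open points did not pass, and black bars are list medians. The replication lists lie to the right of 0 at the median, and the SHH pathway and granule progenitor lists hold no filled point.

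Members carried more transcripts of mitosis genes than non-cycling cells. Members could hold up to 3 of the 10 G2/M genes of the rule and non-cycling cells at most 1. Other genes of mitosis therefore move with that choice of cells. Of 46 G2/M genes outside the rule 26 were higher than in non-cycling cells and 0 lower, with a median difference of 1.22, the highest of the replication and mitosis lists. Of the 26 higher genes 6 passed the filter only through the S-phase class and had to differ. Top2a (chromosome 11, 98992947 to 99024199), which untangles DNA, was at 196, 424 and 398 CPM in the S-phase cells of tumours 1 to 3 and at 23.2, 23.7 and 53.8 CPM in non-cycling cells, a difference of 3.00 ± 0.205 (SE, adjusted p = 2.15e-29). Birc5, Cdk1 and Pbk differed by 2.70 ± 0.232, 2.46 ± 0.239 and 2.16 ± 0.272, and the proliferation marker Mki67 by 1.78 ± 0.254 (SE). Cdk1, the kinase of mitosis, was at 81.8 CPM in tumour 1 against 256 and 258 CPM in tumours 2 and 3. Condensin and cohesin genes were higher in 5 of 18 cases and lower in 0, among them Ncapg, Smc2 and Smc4 (2.02 ± 0.331, 1.36 ± 0.142 and 1.32 ± 0.169, SE). Of the 5 higher genes 2, Ncapg among them, passed the filter only through the S-phase class and had to differ.

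Genes of identity and of the SHH pathway gave no call. Over all genes tested 2.38% were higher and 1.22% lower, so 0 calls in a list of 12 is near that share. Of the SHH list 0 of 12 passed, with 2 at an unadjusted p under 0.05, and of the granule progenitor list 0 of 12, with 2. Gli1, the target and effector of the pathway, was at 53.3, 73.6 and 70.2 CPM in S-phase cells and at 33.2, 56.6 and 53.8 CPM in non-cycling cells, higher in 3 of 3 tumours but by 0.40 ± 0.258 (SE, adjusted p = 0.53). Gli2, a transcription factor of the pathway, was at 42.7, 45.6 and 35.1 CPM against 16.6, 17.6 and 19.4 CPM, and differed by 0.87 ± 0.316 (adjusted p = 0.116). Mycn, which keeps granule progenitors dividing, was at 302, 393 and 655 CPM against 328, 505 and 654 CPM, and differed by -0.15 ± 0.117 (adjusted p = 0.623). Ccnd1 was at 320, 456 and 609 CPM against 344, 475 and 495 CPM, and Ccnd2 at 455, 1051 and 1686 CPM against 454, 1204 and 1561 CPM. These D-type cyclins, which carry growth signals to the cell cycle, differed more between tumours than between the classes of a tumour. Barhl1 did not pass (-0.35 ± 0.118, adjusted p = 0.0795), but it did without the cells that held markers of other types (-0.41, adjusted p = 0.0203).

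Genes of differentiation and cell cycle exit were lower in small numbers. Of 22 neuronal genes 2 were lower and 0 higher. Tubb3, a neuronal tubulin, was at 139, 897 and 644 CPM in S-phase cells against 238, 1159 and 1028 CPM in non-cycling cells, a difference of -0.59 ± 0.111 (SE, adjusted p = 3.62e-05), and Elavl3, a neuronal RNA-binding protein gene, differed by -0.63 ± 0.156, a call lost without tumour 2 or tumour 3 (adjusted p = 0.205 and 0.157). Of 12 exit genes 3 were lower and 0 higher. Btg2, an antiproliferative gene, was at 53.3, 91.1 and 70.2 CPM against 137, 220 and 116 CPM, and differed by -1.02 ± 0.205 (adjusted p = 0.104 without tumour 2). Cdkn1c, a CDK inhibitor, was at 220, 35.0 and 11.7 CPM against 689, 42.5 and 28.2 CPM, and its call was lost without tumour 1 or tumour 3 (adjusted p = 0.742 and 0.107). Tob1 differed by -0.59 ± 0.187, and no fit on a pair of tumours called it (adjusted p = 0.15 to 0.36). Btg1 (adjusted p = 0.146) did not pass, and Cdkn1b, another CDK inhibitor, was at 46.2, 66.6 and 117 CPM against 40.9, 63.7 and 122 CPM. Of 10 Notch genes 2 were lower, Hes1, a Notch target, with 88.9 CPM in tumour 1 and 0 UMIs in tumours 2 and 3 against 195, 13.1 and 42.3 CPM, and Hes6 (-0.71 ± 0.188, SE), whose call was lost without tumour 1 or 3 (adjusted p = 0.0825 and 0.361). For Hes1, 3 UMIs would be 10.5 and 35.1 CPM in the members of tumours 2 and 3, near the levels of their non-cycling cells. Hey1 differed by -0.42 ± 0.140 (adjusted p = 0.0756).

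Glycolysis genes were lower in 2 of 16 cases and higher in 0. Aldoa, an enzyme of glycolysis, was at 288, 189 and 129 CPM in S-phase cells against 739, 401 and 379 CPM, a difference of -1.29 ± 0.134 (SE, adjusted p = 3.28e-15). Eno1, another, differed by -0.49 ± 0.113 (adjusted p = 0.0691 without tumour 2 and 0.199 without tumour 3). Of 82 ribosomal protein genes 4 were lower, and among 10 immediate early and stress genes Hsp90aa1, a chaperone gene, was higher (0.41 ± 0.0921, SE, adjusted p = 0.188 without tumour 3). Of 12 p53 targets and 15 mitochondrial transcripts 0 passed, with 3 and 2 at an unadjusted p under 0.05. This is near the share over all genes tested (2.38% higher and 1.22% lower). Myod1 (chromosome 7, 46376474 to 46379092), a muscle regulator that is known to be transcribed in SHH medulloblastoma, was at 117, 84.1 and 58.5 CPM in S-phase cells against 47.6, 31.7 and 36.1 CPM. It differed by 0.96 ± 0.256 (adjusted p = 0.0106), and by 0.87 and 0.86 without tumour 1 and without tumour 2 (adjusted p = 0.243 and 0.338).

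By the same rule the 10 lowest genes were Lyz2, C1qc, Tyrobp, C1qb, Tcp11l2, Hes1, Armcx1, C1qa, Chd3 and Sat1, with differences from -2.23 to -1.47. Lyz2, C1qa, C1qb, C1qc and Tyrobp are myeloid genes, and 7 of 11 tested markers of the myeloid list were lower. The 12 genes of that list summed to 1745, 45.6, 70.2 and 1181 CPM in members of tumours 1 to 4. They summed to 1051, 670, 433 and 6001 CPM in non-cycling cells. Most of the 1745 CPM in tumour 1 came from the 1 member with Fcer1g, Ctss and Cd74 described above. The part of myeloid transcripts in the result was not tested. Their defining member Ptprc was at 0 in both classes by the rule. Without the cells of either class that held 10 UMIs of another type's marker, the test gave 242 higher and 117 lower genes, and Lyz2 (-0.12, adjusted p = 0.925), Tyrobp, C1qa and Sat1 (adjusted p = 0.818, 0.895 and 0.196) were no longer called. Olig1, Olig2 and Cdkn1c (adjusted p = 0.402, 0.285 and 0.116) also lost the call, C1qb turned from -1.6 to 0.25 (adjusted p = 0.849), and Apoe from -0.96 to 0.20 (adjusted p = 0.56). Btg1 and Hey1 gained it (-0.74 and -0.53, adjusted p = 7.31e-05 and 0.0116). Lyz2, Tyrobp, C1qa, C1qb, Olig1 and Olig2 were themselves among the markers used to leave cells out. Their levels therefore move with that choice, and their lost calls are not separate evidence. With all cells kept, Apoe and Gfap of the astrocyte list and Olig1 and Olig2 of the oligodendrocyte list were lower in members (-0.96 ± 0.112, -0.91 ± 0.279, -1.10 ± 0.308 and -1.24 ± 0.366, SE). Leaving out 1 tumour ended the call of Lyz2 (adjusted p = 0.463 without tumour 3), Gfap (0.157 without tumour 1 and 0.675 without tumour 3), Olig1 (0.521 without tumour 1 and 0.248 without tumour 2) and Olig2 (0.104 without tumour 2 and 0.177 without tumour 3). It also ended those of Tyrobp and Tcp11l2 (0.122 and 0.129 without tumour 2), Armcx1 and Sat1 (0.0732 and 0.078 without tumour 1) and Chd3 (0.0533 without tumour 1 and 0.115 without tumour 3).

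Against G2/M cells, 27 of 10703 genes were higher in S-phase cells (0.252%) and 119 were lower (1.11%). Of the lower genes 7 passed the filter only through G2/M cells and had to differ, and of the higher genes 0 passed only through members. Pif1, Gas2l3, Tuba1c, Cdkn3 and Jag1 are among the 7, with 0 to 2 UMIs each in all members of tumours 1 to 3. Among the largest positive differences were those of Cdc6, Ung, Atp1b2, Tcf19, Fam111a, Mcm4, Chaf1b, Rpa1 and Cdk2 (0.87 to 1.40). The 10 lowest were Fam64a, Pif1, Nusap1, Tacc3, Psrc1, Tuba1c, Ckap2, Kif2c, Gas2l3 and Cdkn3 (-2.13 to -1.85). Without tumour as a block 0 genes passed in either direction, with 542 at an unadjusted p under 0.05. Without tumour 2 the test gave 8 higher and 67 lower, and without tumour 1 it gave 74 lower. Atp1b2 and Tcf19 were lost without tumour 1 or tumour 2 (adjusted p = 0.161 and 0.121, and 0.0588 and 0.597), and Fam111a without tumour 2 (adjusted p = 0.243). Tuba1c was lost without tumour 1 and Gas2l3 without tumour 2 (adjusted p = 0.0875 and 0.0751).

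Licensing and helicase genes were higher than in G2/M cells in 5 of 23 cases and lower in 1, with a median difference of 0.45 against -0.03 over all genes tested. Cdc6 was at 49.8, 109 and 117 CPM in S-phase cells and at 18.8, 32.0 and 30.7 CPM in G2/M cells, and the difference was 1.40 ± 0.257 (SE, adjusted p = 4.48e-05). Mcm6 was at 309, 603 and 503 CPM against 202, 325 and 283 CPM (0.76 ± 0.118, SE). Mcm4, Cdt1 and Mcm2 were also higher, and Dbf4, the activator of the kinase that fires origins, was lower (-0.88 ± 0.253). The calls of Mcm4, Cdt1, Mcm2 and Dbf4 were lost without tumour 2 (adjusted p = 0.11, 0.854, 0.751 and 0.656), and that of Dbf4 also without tumour 1 (adjusted p = 0.584). Ung (chromosome 5, 114130366 to 114139321), which removes uracil from DNA, was at 117, 196 and 222 CPM against 54.0, 69.1 and 96.2 CPM, and was the only call in either direction among 28 repair genes (1.17 ± 0.190, adjusted p = 1.96e-06).

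Of 30 polymerase, clamp and fork genes 4 were higher and 0 lower. Pcna was at 281, 568 and 503 CPM against 202, 292 and 296 CPM, so each tumour's S-phase cells lay above its own G2/M cells (0.71 ± 0.121, SE). Rpa1, which coats single-stranded DNA, Lig1 and Rfc5 differed by 0.88 ± 0.202, 0.73 ± 0.151 and 0.69 ± 0.192. Without tumour 2 the calls of Pcna, Rpa1, Lig1 and Rfc5 were lost (adjusted p = 0.0742, 0.299, 0.433 and 0.229), and that of Rfc5 also without tumour 1 or tumour 3 (adjusted p = 0.0571 and 0.445). Of 13 histone supply genes Chaf1b, Hat1 and Slbp were higher (0.90 ± 0.215, 0.69 ± 0.173 and 0.59 ± 0.123, SE), calls that were lost without tumour 1 or 3, without tumour 1 or 2, and without tumour 2. Among the G1/S regulators Cdk2, the partner of cyclins E and A, was higher (0.87 ± 0.250, adjusted p = 0.0487), and it missed the threshold whichever tumour was left out (adjusted p = 0.0996 to 0.657) and without the cells with other markers (adjusted p = 0.0557).

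**Figure D3:**
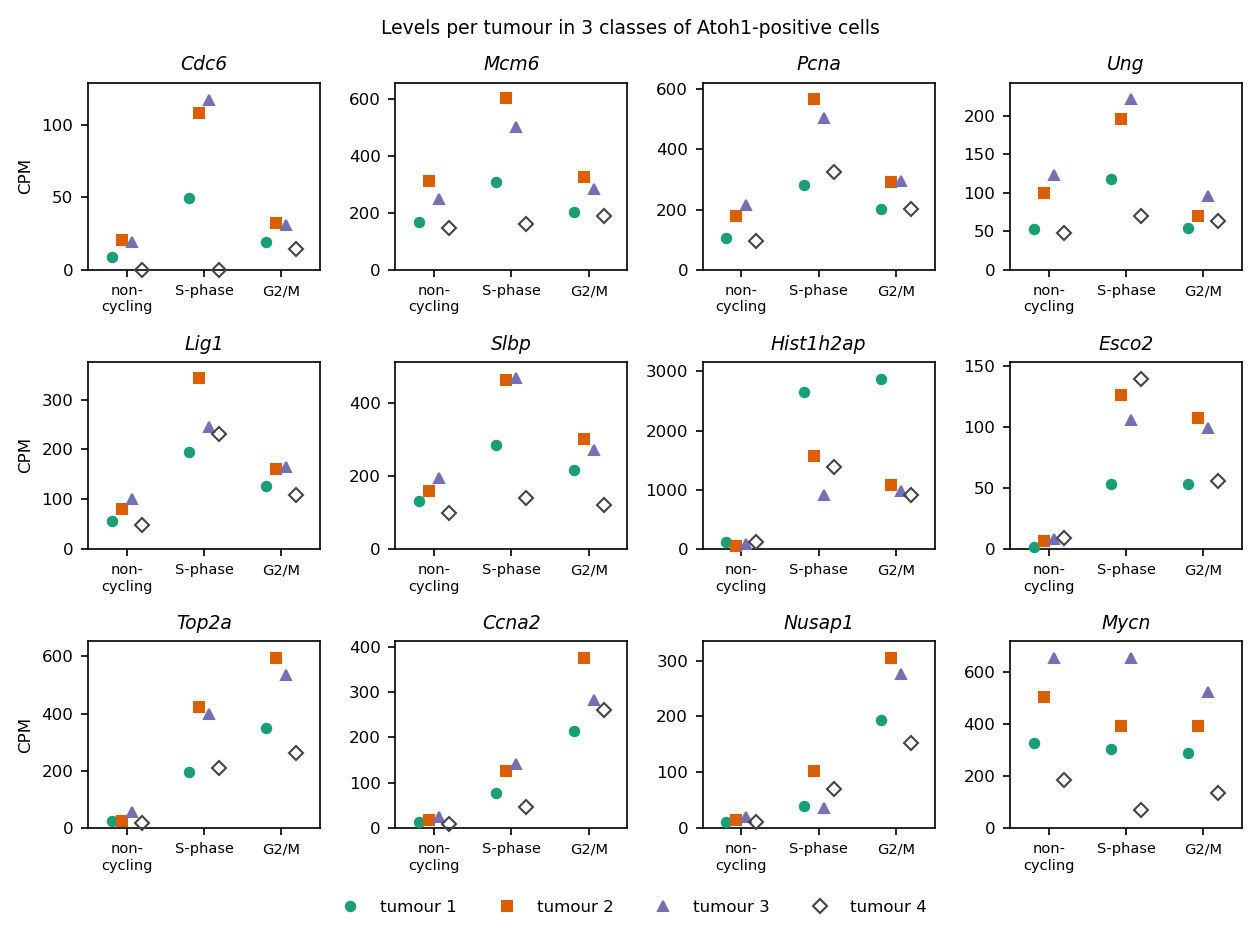
Levels in CPM (y axis, each panel from 0) of 12 genes in non-cycling, S-phase and G2/M cells (x axis), 1 point per tumour and class. Open diamonds are tumour 4, whose 4 members entered no test. Cdc6, Mcm6, Pcna, Ung, Lig1 and Slbp are highest in the S-phase cells of tumours 1 to 3, Top2a, Ccna2 and Nusap1 are highest in the G2/M cells, and Mycn differs more between tumours than between classes.

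Clustered histone genes gave 0 calls of 41 against G2/M cells, with 5 at an unadjusted p under 0.05. Over all genes tested 0.252% were higher and 1.11% lower, so 0 of 41 is near that share. Hist1h2ap was at 2655, 1566 and 901 CPM in S-phase cells and at 2867, 1084 and 971 CPM in G2/M cells, so the order differed between tumours. Variant histone genes were lower in 5 of 10 cases, among them H2afx (178, 284 and 199 against 353, 483 and 418 CPM, -0.91 ± 0.126, SE) and H2afz (-0.33 ± 0.050). Of 46 G2/M genes outside the rule 37 were lower and 0 higher, with a median of -1.30. Nusap1 (chromosome 2, 119618298 to 119650165), a spindle protein, was at 39.1, 102 and 35.1 CPM against 194, 304 and 277 CPM. Top2a (-0.57 ± 0.114), Mki67 (-0.80 ± 0.166) and Cdk1 (-0.79 ± 0.143) were lower by less, and these 3 calls were lost without tumour 1 (adjusted p = 0.0829, 0.271 and 0.123). Ccna2 was lower by 1.27 on the log2 scale, at 78.2, 126 and 141 CPM against 214, 375 and 284 CPM, so that it stood between the other classes in each tumour.

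**Figure D4:**
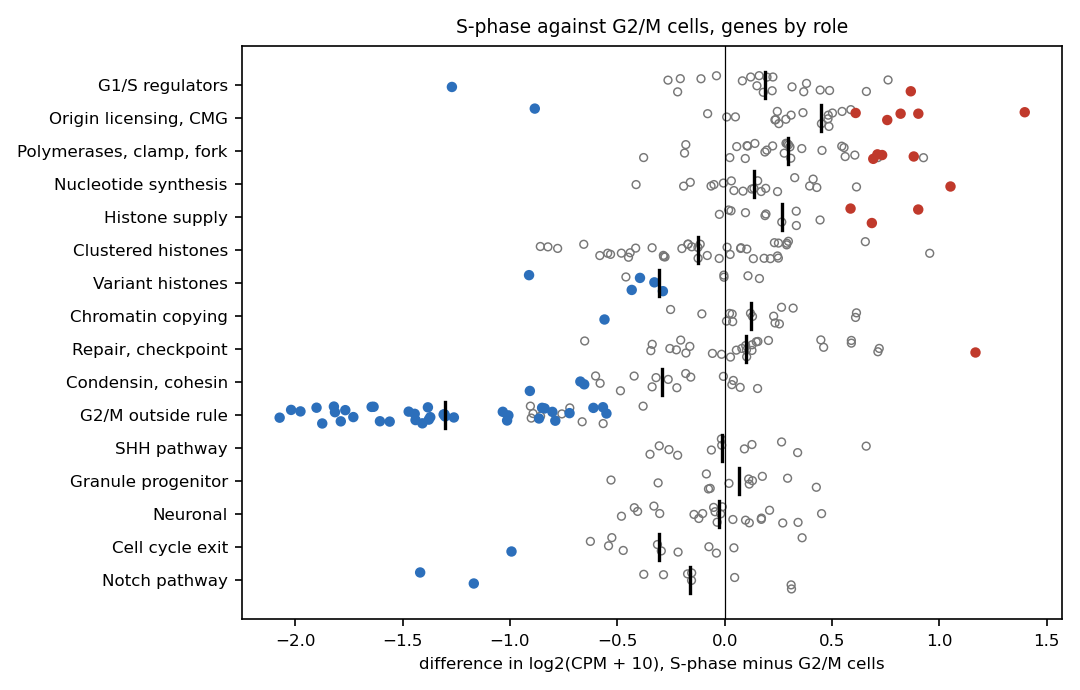
Differences in log2(CPM + 10), S-phase minus G2/M cells (x axis), of the tested genes of 16 lists by role (y axis), in tumours 1 to 3. Red points were higher and blue points lower at an adjusted p under 0.05, open points did not pass, and black bars are list medians. Of 46 G2/M genes outside the rule 37 are blue, and the red points are genes of licensing, fork, nucleotide, histone supply, repair and G1/S lists.

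Lists outside the cell cycle gave few calls against G2/M cells, but so did all genes tested (0.252% higher and 1.11% lower). Counts of 0 in lists of these sizes are near that share. The SHH pathway, granule progenitor, neuronal, p53, glycolysis, ribosomal and myeloid lists gave 0 calls each, with 1, 2, 1, 1, 2, 2 and 0 genes at an unadjusted p under 0.05. Myeloid markers summed to 369, 116, 31.9 and 1133 CPM in G2/M cells of tumours 1 to 4. Gli1 was at 53, 75.9 and 71.0 CPM in the G2/M cells of tumours 1 to 3 and Mycn at 289, 393 and 523 CPM. The exit gene Ccng2 was lower in members (-0.99 ± 0.222, SE), and of the Notch genes Hes1 and Jag1 were lower, with 0 UMIs of Hes1 in the members of tumours 2 and 3 and 0 UMIs of Jag1, which passed the filter only through G2/M cells, in all members. In the members of tumours 2 and 3, 3 UMIs would be 10.5 and 35.1 CPM. Without tumour 2 the calls of Ccng2 and Hes1 were lost (adjusted p = 0.137 and 0.0685). Lmnb1, Smc4, Rad21 and Ncapd2 were the lower genes of the chromatin and condensin lists, and Lmnb1 missed the threshold without tumour 1 (adjusted p = 0.0571). Rad21 and Jag1 were lost without tumour 1 or tumour 2 (adjusted p = 0.0829 and 0.243, and 0.625 and 0.551), and Ncapd2 whichever tumour was left out (adjusted p = 0.0858 to 0.3).

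Members also differed among themselves. Hist1h2ap was at 5090, 2581 and 1517 CPM in the members of tumours 1 to 3 with 0 or 1 G2/M gene, at 2116, 1460 and 651 CPM in those with 2, and at 2401, 1490 and 615 CPM in those with 3. The first of these bins held 3 cells in each tumour and no cell of tumour 4. No other measure tabulated had its highest value in that bin in all of tumours 1 to 3 except the clustered histone genes summed, of which Hist1h2ap is most. The licensing genes summed to 2276, 3762 and 2646 CPM in that bin and to 1607, 3414 and 3975 CPM in members with 3 G2/M genes, so tumour 3 ran the other way. By neuronal genes, Tubb3 was at 132, 378 and 592 CPM in members with 0 or 1 of them and at 155, 1133 and 724 CPM in members with 3, while Pcna was at 303, 720 and 533 CPM and at 224, 518 and 570 CPM. These values are from few cells and carry no test.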

How the data were processed

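The authors deposited 1 table of log2 values per tumour, genes by cells. Cell Ranger, Seurat and the mm10 build are named in the submitters' processing notes, with versions not given in the sources used here. Each value was log2(UMI count / size factor + 1), and UMIs were recovered from it (largest distance from a whole number 6.59e-11). No correction for free RNA was made here, and doublets were not removed because Scrublet (scanpy 1.11.5) called too few.

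The 13149 genes listed in all 4 tables, detected in at least 5% of the cells of either class and outside the 22 rule genes, were tested with limma 3.58.1 in R 4.3.3 (tumour as a block, mean-variance trend, robust, Benjamini-Hochberg adjustment, threshold 0.05, pseudocount 10 CPM, at least 10 cells per class). Tumour is a block because the classes come from the same libraries. Python was 3.11.15. The test was tried on simulated data with known changes. Named genes were the 10 largest called differences each way (same direction in every tumour, at least 20 CPM), up to 4 per list, and a set of genes always given. Mcm2 against G2/M cells falls outside this rule and was named after its values were seen, as were the single cells described.

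The members, classes and gene lists were chosen with earlier results of these data known. Alternatives for scaling, pseudocount, filter, thresholds, depth, doublets and single tumours are given at the end. Total UMIs per class set the precision. A result that is withheld is not reported here.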

Additional observations from a re-analysis of the deposited data

Results flagged for a closer look

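Of 106 per-tumour levels in members that were checked, 11 had 1 tumour apart from the other 3 by nearly the whole range (Dixon's test at the 95% level). For normally distributed values chance alone gives this in about 1 group in 20. That rate does not hold for counts near 0, where a gene with UMIs in only 1 tumour is always flagged. In tumour 4, with 4 members, Olig1 was at 278 CPM (3.5 to 39.1 in the others), Olig2 at 301.1 CPM (0 to 24.9), Hist1h2ae at 486 CPM (199 to 224), C1qc at 69.5 CPM (0 to 3.55) and Sat1 at 46.3 CPM (10.5 to 11.7). In tumour 1, Cdk1 was at 81.8 CPM (232 to 258 in the others), Cdkn1c at 220 CPM (0 to 35.0), C1qa at 14.2 CPM and Tuba1c at 7.11 CPM, both with 0 in the others. In tumour 3, Gas2l3 and Pif1 were each at 11.7 CPM, the worth of 1 UMI, with 0 in the others.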

How the results depend on the processing

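Counts of genes that passed are given as higher and lower in members, 242 and 124 against non-cycling cells and 27 and 119 against G2/M cells. Against non-cycling cells, lower genes numbered 31 with the mean of deposited log2 values, 43 with pseudocount 2, 50 with no filter, 60 with detection in 20% of cells, 81 with at least 3 S-phase genes, 52 with non-cycling cells of at most 2 and 2 genes and 73 with UMIs in the range of members, a setting that, like the one without cells with other markers, was added after seeing the data. With no replicate block the counts were 10 and 0, and 0 and 0 against G2/M cells, with 741 and 542 genes at an unadjusted p under 0.05 by limma. Leaving out 1 tumour gave 97 to 171 higher and 41 to 70 lower, and 8 to 40 higher and 67 to 127 lower against G2/M cells. Other settings added then, with at least 4 cells per class, gave 133 and 42 with all cells and 132 and 41 without high doublet scores, both with tumour 4, and 101 and 70 with thinned cells and 86 and 37 with UMIs in the interquartile range, both in tumours 1 to 3. Against G2/M cells these gave 7 and 64, 9 and 66, 20 and 63, and 9 and 60. There, no filter gave 5 and 39, detection in 20% of cells 16 higher, at least 3 S-phase genes 57 and 194, at least 7 G2/M genes 42 higher and the mean of deposited log2 values 74 lower. The cause of these shifts was not tested. Among named genes, Gli1 (-0.10) and Mycn (0.12) changed sign with the interquartile range, and Gli2 (-0.016) and Tyrobp (0.34) with thinned cells. C1qb changed sign with the mean of deposited log2 values (0.086) and without cells with other markers (0.25), as did Apoe (0.20) in the latter. Shares of members in tumours 1 to 4 were 0.251%, 0.425%, 0.244% and 0.0528% with 5 S-phase genes and 0.376%, 0.116%, 0.244% and 0 with at most 1 G2/M gene. With at least 3 S-phase genes they were 2.24%, 3.25% and 0.898% in tumours 2 to 4, and after thinning 0.627% and 1.68% in tumours 1 and 2. Fits on thinned cells, the interquartile range, cells without high doublet scores, 5 S-phase genes or at most 1 G2/M gene could not be made with 10 cells per class in 3 tumours. Members held few UMIs, so a gene at 0 in 1 tumour can lie below 10.5 to 69.5 CPM.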
